A study of Mus musculus with 6 samples.

Results

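The NRF2 and glutathione genes are a set of 51 mouse genes that regulate, make, use and break down glutathione, the main small antioxidant of the cell, or that remove peroxides and superoxide beside it. They comprise 26 genes chosen by name and the 25 genes whose symbols fit the naming pattern of the soluble glutathione transferases (Gsta, Gstk, Gstm, Gsto, Gstp, Gstt and Gstz with a number) or of the microsomal ones (Mgst), out of 53465 genes in the count tables. All 51 were found by symbol, and 48 passed the filter on low counts. The other members, Gsta1, Gsta2 and Gstt4, held from 0 to 24 counts in any library and were not tested.

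NRF2, encoded by Nfe2l2, is a transcription factor that binds antioxidant response elements in DNA. In unstressed cells the adaptor KEAP1 delivers it to a CUL3 ubiquitin ligase for destruction, and oxidants or electrophiles that modify KEAP1 let NRF2 accumulate, so its activity is set mainly at the protein level. Its known targets include enzymes of glutathione synthesis, the thioredoxin system, NADPH supply and many glutathione transferases. Some genes of glutathione breakdown and cysteine supply belong instead to the amino acid stress response driven by ATF4.

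The tested libraries came from Royan B20, a line of mouse embryonic stem cells. In 3 BMP-inhibited libraries the cells grew in R2i medium with LIF to which 250 nM of the BMP-binding protein noggin and 5 µM of dorsomorphin, a kinase inhibitor that acts on BMP receptors, had been added. The 3 R2i control libraries came from R2i with LIF alone. Both groups therefore carried 1 µM PD0329501 (the labels' spelling), which inhibits MEK, and 10 µM SB431542, which inhibits the receptors for TGF-beta and activin, on 0.1% gelatin after 7 passages. The labels name a single line and call the replicates biological, and they give no duration for the inhibitors. Noggin and dorsomorphin were always present together, so their effects cannot be told apart. Gene counts were between 31474666 and 33774524 in BMP-inhibited libraries and between 32720441 and 35322844 in control libraries.

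Markers fixed for the cell types that the cultures could hold were summed in CPM, counts scaled to the library size with TMM factors. Their counts of calls are to be set beside all genes tested, of which 32.5% rose and 31.7% fell. The 10 stem cell markers, of which 2 rose and 6 fell, summed to 4866 to 5117 CPM in BMP-inhibited and 5390 to 5557 CPM in control libraries. The 10 trophectoderm markers, of which 8 could be tested and 7 rose, summed to 388 to 473 CPM in BMP-inhibited and 212 to 219 CPM in control libraries, with Cdx2 at 8 to 21 counts in BMP-inhibited and 0 to 1 counts in control libraries. Tfap2c, which was not called, made up much of that sum, at 137 ± 9.06 CPM in BMP-inhibited and 128 ± 1.20 CPM in control cells, and the median log2 fold change of the 8 genes was 2.61. Krt8 rose 4.96-fold, Krt18 6.51-fold and Gata3 6.64-fold, and Hand1 held 161 to 245 counts in BMP-inhibited and 2 to 4 counts in control libraries. Hand1, counted among the 7, would not have passed the count filter on the control libraries alone. The 10 primitive endoderm markers, 4 higher and 3 lower of 9 tested, summed to 771 to 832 CPM in BMP-inhibited and 714 to 725 CPM in control libraries. Sparc made up most of that sum, at 602 ± 27.6 CPM in BMP-inhibited and 465 ± 10.3 CPM in control cells. The 3 that fell were Lama1, Sox7 and Gata4, with log2 fold changes of -1.59, -1.08 and -0.74. The 4 that rose were Gata6, Pdgfra, Lamb1 and Sparc, at 1.64, 1.13, 0.72 and 0.37, and the median of the 9 tested was 0.37. The 10 fibroblast markers, 2 higher and 1 lower of 5 tested, summed to 12.97 to 14.7 CPM in BMP-inhibited and 11.8 to 13.5 CPM in control libraries, and Fap was at 0 in all 6. Postn, counted among the 2 that were higher, held 0 to 2 counts in control libraries and would not have passed the filter on them alone. BMP-inhibited replicate 2 stood apart from its group on the second principal component of all genes tested (27.2, against -20.4 and -4.4), which held 5.5% of the variance. Without it 24 members were higher and 9 lower in the comparison below. What part the marker differences have in the results was not tested. In bulk RNA, fewer cells expressing a gene and less RNA per cell cannot be told apart.

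The promoters of Chac1, Prdx1 and Gclm are shown as examples of member promoters that hold a match to an element of the ATF4 or NRF2 pathway, and were chosen for those matches; most member promoters hold none. Chac1, a glutathione-degrading enzyme gene, was the member with the largest fall, while Prdx1, an abundant peroxiredoxin gene, and Gclm, of the enzyme for the first step of glutathione synthesis, were higher. Each sequence runs from 250 bases before to 50 bases after the RefSeq start on GRCm38.p6, on the plus strand, at chr2:119350992-119351291 for Chac1, chr4:116685349-116685648 for Prdx1 and chr3:122245307-122245606 for Gclm. Capitals mark matches to TGATGNAA, the C/EBP-ATF composite element, in Chac1, and to TGACNNNGC, the core of the antioxidant response element, in Prdx1 and Gclm. All of these matches read on the opposite strand.
Chac1: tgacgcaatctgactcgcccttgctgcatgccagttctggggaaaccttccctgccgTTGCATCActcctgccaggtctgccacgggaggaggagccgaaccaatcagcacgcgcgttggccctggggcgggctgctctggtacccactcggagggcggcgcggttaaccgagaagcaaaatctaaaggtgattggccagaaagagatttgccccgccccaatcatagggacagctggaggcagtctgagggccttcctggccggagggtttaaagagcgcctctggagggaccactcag
Prdx1: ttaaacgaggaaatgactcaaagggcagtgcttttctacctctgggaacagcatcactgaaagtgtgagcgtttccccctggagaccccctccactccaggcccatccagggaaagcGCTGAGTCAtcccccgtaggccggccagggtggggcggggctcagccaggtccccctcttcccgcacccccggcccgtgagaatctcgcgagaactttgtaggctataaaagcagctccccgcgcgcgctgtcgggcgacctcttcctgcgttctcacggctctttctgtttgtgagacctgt
Gclm: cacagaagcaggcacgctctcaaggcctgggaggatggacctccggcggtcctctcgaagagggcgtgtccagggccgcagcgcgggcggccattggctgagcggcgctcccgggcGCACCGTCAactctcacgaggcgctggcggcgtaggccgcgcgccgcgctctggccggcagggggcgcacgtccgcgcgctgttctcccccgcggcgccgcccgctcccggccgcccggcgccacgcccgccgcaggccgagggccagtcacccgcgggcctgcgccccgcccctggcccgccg

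The match in Chac1 began at position -193 from the start, that in Prdx1 at -133 and that in Gclm at -134. RefSeq promoters were found for 44 of the 51 members, in 58 windows, and none for Cth, Gclc, Gsr, Gsta4, Gstt2, Hmox1 and Prdx6. Searched on both strands, TGACNNNGC was in 10 of the 58 windows (17.2%), and in 12.4% of all 32851 promoter windows of the table. The genes concerned were Gclm, Ggct, Gsta3, Gstm5, Gstm7, Mgst1, Nfe2l2, Prdx1, Sod1 and Srxn1. TGATGNAA was in 1 window of a member, that of Chac1 (1.72%), and in 3.97% of all windows. The gene Chac1 held a match to TGATGNAA alone, so the motifs did not overlap in any member. A match is a description of the letters and shows no binding.

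The comparison asks how these genes differ in R2i cells when noggin and dorsomorphin are added. Of the 48 members tested, 25 rose and 9 fell at an adjusted p of 0.05 in edgeR's quasi-likelihood test, and 14 were not called. As a share, 52.1% of the members rose and 18.8% fell. Over all 15951 genes tested, 64.2% were called, 32.5% as higher and 31.7% as lower, so the share of members called in either direction, 70.8%, lay near this background. The median log2 fold change was 0.22 for the members and 0.00 for all genes (-0.003 before rounding). Levels did not overlap between the groups for 36 of the 48 members, 26 higher and 10 lower (75%). Among all genes 68.6% did not overlap, 34.5% higher and 34.1% lower. Most changes were moderate: 7 members called passed 2-fold, where 15.5% of all genes did, and called members had a median absolute log2 fold change of 0.57, where all called genes had 0.54.

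**Figure D1:**
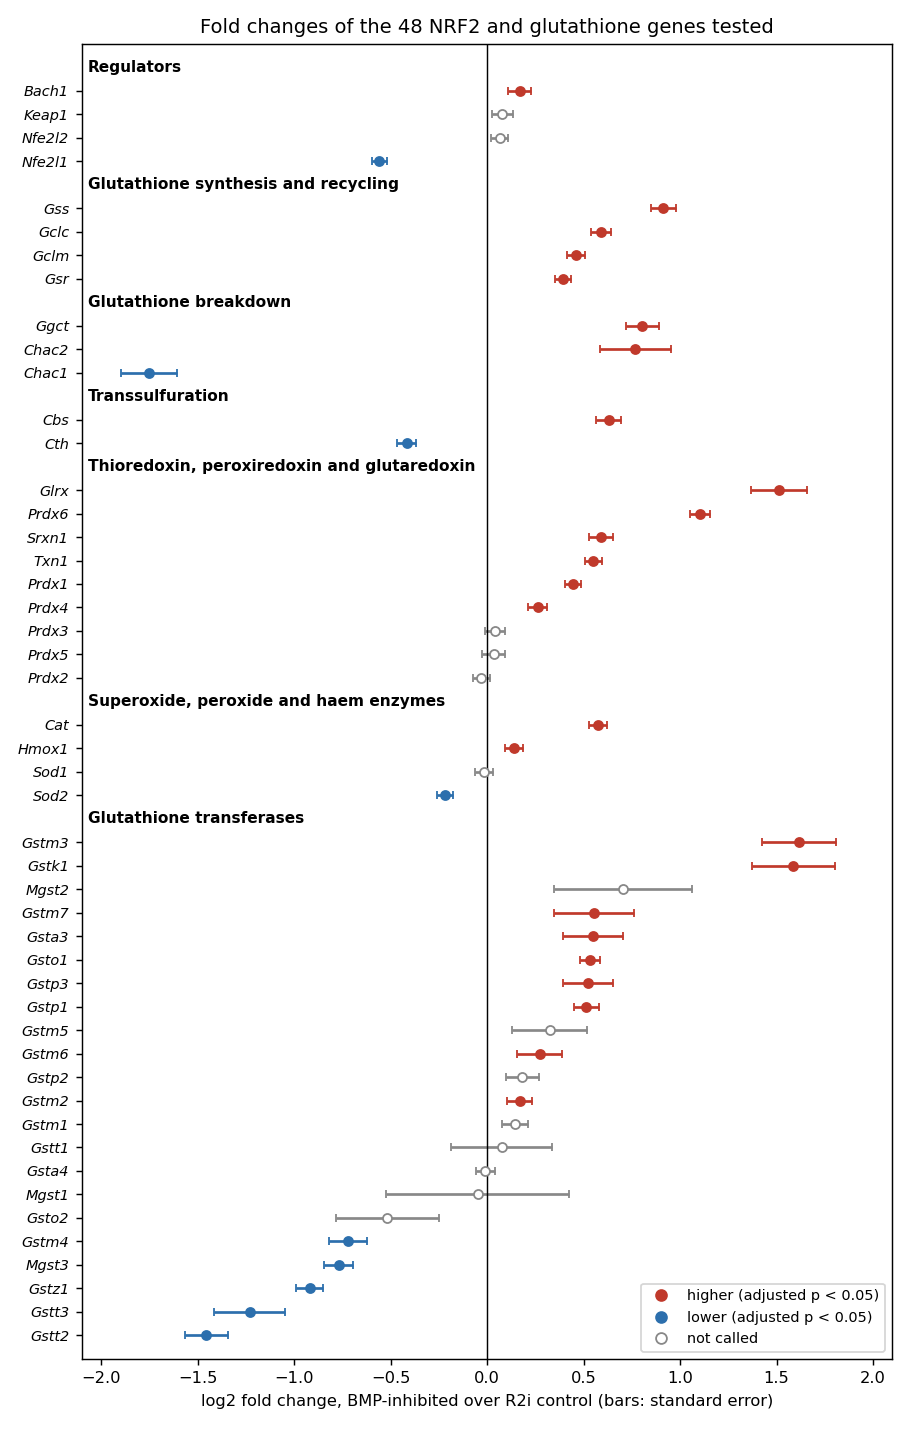
Log2 fold change (BMP-inhibited over R2i control, horizontal axis) with its standard error for the 48 members tested, grouped by role down the page; filled points passed an adjusted p of 0.05. Synthesis genes lie right of 0, Chac1 lies farthest left at -1.75, and the glutathione transferases run from -1.46 for Gstt2 to 1.61 for Gstm3.

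Among the regulators, the transcripts of NRF2 and of its inhibitor KEAP1 did not pass the test, and that of NRF1 fell. Nfe2l2 was at 156, 160.0 and 156 CPM in BMP-inhibited libraries, against 149, 146 and 157 CPM in control libraries. Its groups overlapped, and its log2 fold change was 0.06 (SE 0.04, adjusted p = 0.214). Keap1 was at 44.8, 43.4 and 44.3 CPM in BMP-inhibited libraries, against 41.2, 42.01 and 42.3 CPM in control libraries. Every BMP-inhibited library of Keap1 was above every control library, by little, at a log2 fold change of 0.08 that was not called (SE 0.05, adjusted p = 0.224).

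Bach1 encodes a haem-sensitive repressor that competes with NRF2 for the same DNA elements. It was at 116, 110 and 96.5 CPM in BMP-inhibited libraries, against 92.99, 101 and 92.7 CPM in control libraries, and the groups overlapped. The rise of Bach1 was small (log2 fold change 0.17, SE 0.06, adjusted p = 0.0245). The call ended when BMP-inhibited replicate 1 (0.11, adjusted p = 0.0875), control replicate 1 (0.15, adjusted p = 0.106) or control replicate 3 (0.14, adjusted p = 0.128) was left out, or when library totals alone set the scale (0.11, adjusted p = 0.142). Nfe2l1 encodes NRF1, a relative of NRF2 anchored in the endoplasmic reticulum membrane that is known for inducing proteasome genes. It was at 287, 273 and 282 CPM in BMP-inhibited libraries, against 410.1, 418 and 412 CPM in control libraries. The groups lay far apart for Nfe2l1, which fell by 0.56 on the log2 scale (SE 0.04, adjusted p = 6.73e-09).

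All 4 genes of glutathione synthesis and recycling rose, with a median log2 fold change of 0.53 (0.525 before rounding), and in each of them every BMP-inhibited library was above every control library. Among all genes tested 32.5% rose, and 34.5% were higher without overlap. Gclc encodes the catalytic subunit of glutamate-cysteine ligase, the rate-limiting enzyme of the pathway. It was at 103, 90.5 and 101 CPM in BMP-inhibited libraries, against 64.3, 65.2 and 65.8 CPM in control libraries (log2 fold change 0.59, SE 0.05, adjusted p = 1.24e-07). Gclm, its modifier subunit, averaged 98.3 ± 3.81 CPM in BMP-inhibited and 71.5 ± 1.03 CPM in control cells (SD, n = 3 each; log2 fold change 0.46, SE 0.05).

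Gss encodes glutathione synthetase, which adds glycine in the last step. It was at 71.5, 85.5 and 77.4 CPM in BMP-inhibited libraries, against 39.9, 42.2 and 42.3 CPM in control libraries. This was the largest rise of the 4 genes (log2 fold change 0.91, SE 0.06, adjusted p = 7.34e-09). Exons of Gss (chromosome 2, 155563181 to 155592810) overlap antisense genes over 18.6% of their length, Acss2 among them, which averaged 17.5 ± 0.675 CPM in BMP-inhibited and 12.3 ± 0.899 CPM in control cells and rose by 0.51. Gsr, the NADPH-dependent reductase that recycles oxidised glutathione, averaged 226 ± 8.0 CPM in BMP-inhibited and 172 ± 3.58 CPM in control cells (log2 fold change 0.39, SE 0.04).

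The 3 enzymes of glutathione breakdown inside the cell moved in different directions. Chac1 (ENSMUSG00000027313, chromosome 2, 119351229 to 119354381), a gamma-glutamylcyclotransferase that cleaves glutathione and a known target of ATF4 and CHOP, was at 17.05, 32.0 and 19.95 CPM in BMP-inhibited libraries, against 76.2, 79.5 and 76.7 CPM in control libraries. All 3 BMP-inhibited libraries were below all controls, with replicate 2 the highest of the 3. The log2 fold change of Chac1 was -1.75, with SE 0.14 and adjusted p = 4.24e-08, and its level was 0.297 times that of controls. Its relative Chac2, an enzyme of lower activity, was at 2.94, 3.34 and 3.23 CPM in BMP-inhibited libraries, against 1.93, 1.99 and 1.66 CPM in control libraries, and rose by 0.77 (SE 0.18, adjusted p = 0.00172). Ggct encodes the cyclotransferase that acts on gamma-glutamyl dipeptides. It was at 24.3, 29.5 and 25.6 CPM in BMP-inhibited libraries, against 15.04, 14.5 and 16.01 CPM in control libraries, and rose by 0.80 (SE 0.09, adjusted p = 7.06e-07).

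Per kilobase of exon, a scale on which genes can be compared, Chac1 was the highest of the 3 in both groups. Chac1 was at 14.1 CPM per kb in BMP-inhibited and 47.3 CPM per kb in control cells. Ggct was at 3.42 CPM per kb in BMP-inhibited and 1.96 CPM per kb in control cells, and Chac2 at 2.41 CPM per kb in BMP-inhibited and 1.41 CPM per kb in control cells. Exonic length is that of all annotated exons merged, so genes with long rare exons read low on this scale.

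The paired enzymes of transsulfuration, the route from homocysteine to cysteine, moved in opposite directions. Cbs, which joins homocysteine and serine, was at 34.8, 37.9 and 33.6 CPM in BMP-inhibited libraries, against 22.6, 22.8 and 23.4 CPM in control libraries. It rose by 0.63 (SE 0.07, adjusted p = 7.86e-07), with the groups apart. Cth, which releases cysteine and is also a known ATF4 target, averaged 203 ± 15.3 CPM in BMP-inhibited and 270.4 ± 3.07 CPM in control cells and fell by 0.42 on the log2 scale (SE 0.05, adjusted p = 2.67e-06). Cth stayed the more abundant transcript, at 72.6 CPM per kb in BMP-inhibited and 96.9 CPM per kb in control cells, against 4.74 CPM per kb in BMP-inhibited and 3.06 CPM per kb in control cells for Cbs.

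**Figure D2:**
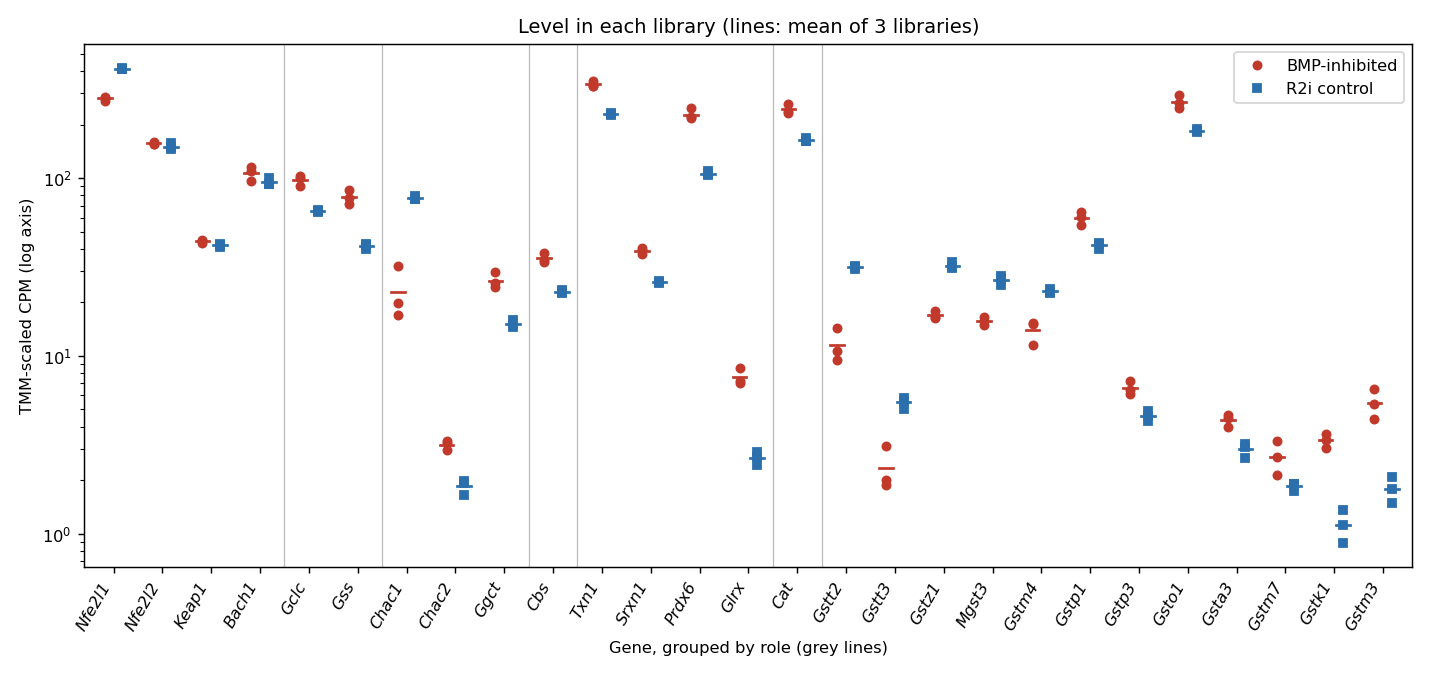
TMM-scaled CPM (log axis) of the 27 members given library by library, with 3 BMP-inhibited libraries (circles) left of 3 control libraries (squares) for each gene and a line at each mean. The groups do not overlap for Chac1, Gss, Prdx6 or Gstt2, and they overlap for Nfe2l2 and Bach1.

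Of 9 genes of the thioredoxin, peroxiredoxin and glutaredoxin systems 6 rose and 0 fell, and those that rose were apart between the groups. The share called was 66.7%, near the 64.2% of all genes tested, and 66.7% were apart, against 68.6% of all genes. Every call was upward, where 32.5% of all genes rose and 31.7% fell. Prdx6 encodes a peroxiredoxin that also reduces oxidised membrane lipids. It was at 219.8, 217 and 247 CPM in BMP-inhibited libraries, against 109, 104 and 106 CPM in control libraries, and had the smallest p of the 48 members (log2 fold change 1.10, SE 0.05, adjusted p = 1.04e-10). Glrx encodes glutaredoxin, which removes glutathione from protein cysteines. It was at 7.01, 8.57 and 7.22 CPM in BMP-inhibited libraries, against 2.43, 2.87 and 2.68 CPM in control libraries, a 2.85-fold rise (log2 fold change 1.51, SE 0.15, adjusted p = 2.33e-07).

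Txn1, the cytosolic thioredoxin, was at 329, 352 and 330.4 CPM in BMP-inhibited libraries, against 232, 228 and 229.8 CPM in control libraries, and rose by 0.55 (SE 0.04, adjusted p = 1.57e-08). Sulfiredoxin, which restores overoxidised peroxiredoxins, is encoded by Srxn1, at 39.3, 40.6 and 37.3 CPM in BMP-inhibited libraries, against 26.4, 25.6 and 25.9 CPM in control libraries. Srxn1 rose by 0.59 (SE 0.06, adjusted p = 6.73e-07). Prdx1, a cytosolic peroxiredoxin, averaged 814 ± 29.98 CPM in BMP-inhibited and 598 ± 17.5 CPM in control cells (log2 fold change 0.45, SE 0.04). Per kilobase Txn1 was the highest of the members in both groups, at 321 ± 12.4 CPM per kb in BMP-inhibited and 219 ± 2.04 CPM per kb in control cells.

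The other peroxiredoxins changed less or were not called. Prdx4, of the endoplasmic reticulum, averaged 79.7 ± 1.70 CPM in BMP-inhibited and 66.5 ± 1.15 CPM in control cells and rose by 0.26 (SE 0.05, adjusted p = 0.000174). The mitochondrial Prdx3 and Prdx5 were not called, at log2 fold changes of 0.04 (SE 0.05) and 0.03 (SE 0.06). Prdx2, a second cytosolic form, averaged 251 ± 11.5 CPM in BMP-inhibited and 256 ± 2.86 CPM in control cells and was not called either (log2 fold change -0.03, SE 0.04). Antisense genes overlap 11.5% of the exons of Prdx2, where Rnaseh2a had a log2 fold change of -0.34 and Junb rose by 0.65, and 19.1% of those of Prdx5, where Trmt112 rose by 0.36.

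Among the enzymes of superoxide, hydrogen peroxide and haem, catalase rose most. Cat was at 232, 260.2 and 239.7 CPM in BMP-inhibited libraries, against 161.5, 162 and 168 CPM in control libraries, and rose by 0.57 (SE 0.05, adjusted p = 4.56e-08) with the groups apart. Hmox1, the haem-degrading enzyme gene often used as a marker of NRF2 activity and of BACH1 release, averaged 142 ± 7.43 CPM in BMP-inhibited and 129 ± 2.02 CPM in control cells. Its rise was 1.10-fold (log2 fold change 0.14, SE 0.05, adjusted p = 0.0163). The call for Hmox1 ended on leaving out control replicate 1 (0.13, adjusted p = 0.0786), control replicate 3 (0.13, adjusted p = 0.075) or BMP-inhibited replicate 3 (0.11, adjusted p = 0.072), and under scaling by library totals alone (0.08, adjusted p = 0.147). Sod1, the cytosolic superoxide dismutase, averaged 460.1 ± 30.9 CPM in BMP-inhibited and 466 ± 4.52 CPM in control cells and was not called (log2 fold change -0.02, SE 0.05). Sod2, its mitochondrial counterpart, averaged 239 ± 5.28 CPM in BMP-inhibited and 278 ± 2.53 CPM in control cells and fell by 0.22 on the log2 scale (SE 0.04, adjusted p = 0.000174).

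Glutathione transferases, which join glutathione to electrophiles or use it as a cofactor, differed between and within classes. Of 22 tested 9 rose, 5 fell and 8 were not called, with a median log2 fold change of 0.18. In all 63.6% were called, near the 64.2% of all genes tested, with 40.9% higher and 22.7% lower against 32.5% and 31.7%. The summed level of all 25 genes was 765, 884 and 835 CPM in BMP-inhibited libraries, against 762, 754 and 764.5 CPM in control libraries. Each BMP-inhibited sum was above each control sum, the lowest by little. Gsto1 was a large part of it, at 268 ± 22.65 CPM in BMP-inhibited and 185 ± 3.06 CPM in control cells. The alpha and mu class sums overlapped between the groups. In all BMP-inhibited libraries the omega, pi and kappa sums were higher and the theta, zeta and microsomal sums lower. Per kilobase the most abundant transferase in either group was Gsta4, whose enzyme acts on aldehydes from lipid peroxidation, at 208 CPM per kb in BMP-inhibited and 209 CPM per kb in control cells. It was followed by Gsto1, Gstm1 and Gstp1 in both groups. Gsta4 was not called (log2 fold change -0.01, SE 0.05).

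**Figure D3:**
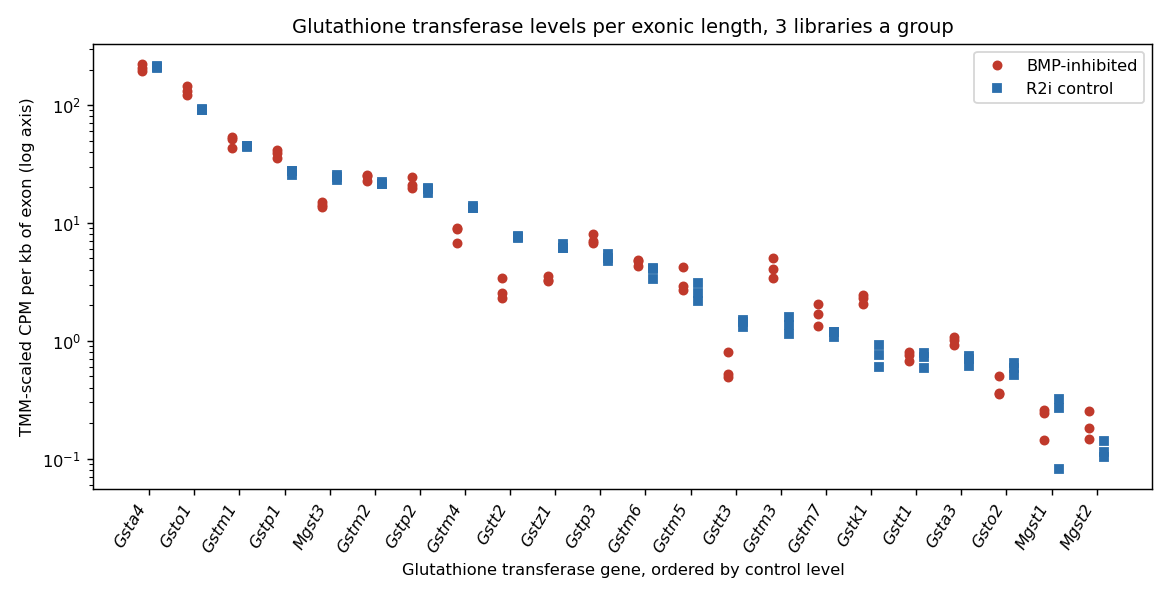
TMM-scaled CPM per kb of exon (log axis) of the 22 glutathione transferase genes tested, ordered by control level, with 3 BMP-inhibited libraries (circles) left of 3 control libraries (squares). Gsta4 has the highest level in both groups, Mgst3, Gstm4, Gstt2, Gstz1 and Gstt3 are lower in all BMP-inhibited libraries, and Gstm3 and Gstk1 are 3.06-fold and 3.01-fold higher.

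The theta class was lower as a sum, at 13.9, 18.5 and 12.6 CPM in BMP-inhibited libraries, against 37.5, 38.5 and 38.1 CPM in control libraries. Gstt2 (ENSMUSG00000033318, chromosome 10, 75831114 to 75837424) supplied most of it, at 10.7, 14.3 and 9.50 CPM in BMP-inhibited libraries, against 30.8, 32.2 and 31.4 CPM in control libraries. Its log2 fold change, -1.46 (SE 0.11, adjusted p = 1.76e-08), was the second-largest fall of the members. Gstt3 was at 2.00, 3.11 and 1.89 CPM in BMP-inhibited libraries, against 5.82, 5.05 and 5.55 CPM in control libraries, a log2 difference of -1.23 (SE 0.19, adjusted p = 2.88e-05). For both genes BMP-inhibited replicate 2 was the highest of its group and still below all controls. Gstt1, at 1.14 ± 0.101 CPM in BMP-inhibited and 1.08 ± 0.157 CPM in control cells, was not called (log2 fold change 0.075, SE 0.26). Of the exons of Gstt3, 13.6% overlap a predicted gene on the same strand, which held 0 counts in every library.

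The theta genes lie within 63.3 kb of each other on chromosome 10, beside coding genes of which 5 of 8 tested fell and 2 rose (31.7% of all genes fell). On the far side of Mif, which rose by 0.32 (SE 0.05), lies Derl3, at -4.36 (SE 0.08), whose product helps export misfolded proteins from the endoplasmic reticulum. Beyond Derl3 come Smarcb1 at -0.30, Mmp11 at -1.18 and Chchd10 at -0.87, all of which fell. On the other flank Ddt, at -0.02 (SE 0.08), was not called, Cabin1 rose by 0.21 (SE 0.05) and Susd2, beyond it, had a log2 fold change of -0.36 (SE 0.06) and fell. Around the mu cluster, described next, 3 of 7 neighbours tested rose and 2 fell (32.5% of all genes rose and 31.7% fell). Among them were Csf1 at 1.97 (SE 0.48), Ampd2 at 0.40 (SE 0.06) and Amigo1 at -1.07 (SE 0.13). Csf1 held 31, 28 and 56 counts in BMP-inhibited libraries, against 21, 8 and 3 counts in control libraries. It would not have passed the count filter on the control libraries alone. Near the pi cluster 1 of the 5 neighbours tested and reported here rose, Pitpnm1 by 1.38 (SE 0.17), and 0 fell. The neighbours were looked at after the values of the transferases were known.

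**Figure D4:**
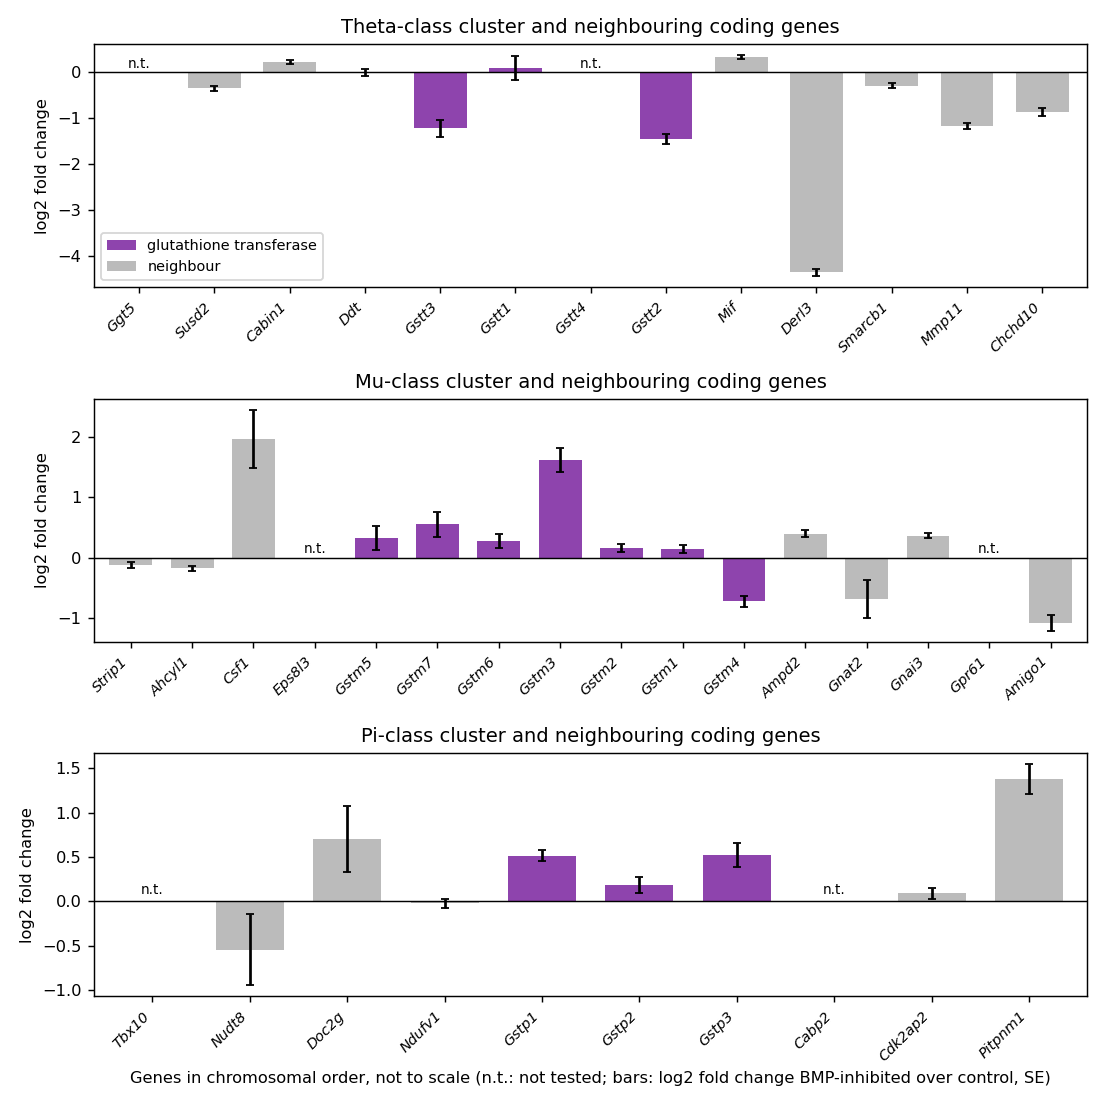
Log2 fold change (BMP-inhibited over R2i control, bars with standard errors) of coding genes in chromosomal order around the theta, mu and pi clusters of glutathione transferases (purple) and their neighbours (grey), predicted Gm genes left out; n.t. marks genes not tested. In the theta panel Gstt3 and Gstt2 fall, with Gstt1, not called, between them. Mif, which rises, lies between Gstt2 and Derl3 at -4.36. In the mu panel Gstm3 rises by 1.61 while Gstm4 falls at -0.72.

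The 7 mu class genes of the cluster on chromosome 3, within 149.1 kb, did not move as a block. Gstm3 was at 5.36, 4.43 and 6.55 CPM in BMP-inhibited libraries, against 1.79, 1.49 and 2.08 CPM in control libraries. With the groups apart and a 3.06-fold rise, it changed upward more than any other member (log2 fold change 1.61, SE 0.19, adjusted p = 2.34e-06). Gstm4, the last gene of the cluster by coordinate, went the other way. It was at 11.6, 15.2 and 15.3 CPM in BMP-inhibited libraries, against 22.7, 23.6 and 22.95 CPM in control libraries (log2 fold change -0.72, SE 0.10, adjusted p = 9.71e-06).

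Gstm7 was at 2.13, 3.31 and 2.68 CPM in BMP-inhibited libraries, against 1.90, 1.74 and 1.90 CPM in control libraries. Its rise of 0.55 (SE 0.21, adjusted p = 0.0293) rested on few counts, and it was lost when any library other than BMP-inhibited replicate 1 was left out, with log2 fold changes of 0.39 to 0.57 and adjusted p from 0.0548 without BMP-inhibited replicate 3 to 0.128 without BMP-inhibited replicate 2. Gstm2 and Gstm6 were called with log2 fold changes of 0.17 (SE 0.06, adjusted p = 0.03) and 0.27 (SE 0.12, adjusted p = 0.0498). The call for Gstm2 was lost without any of the control libraries (adjusted p = 0.0575 to 0.115), without BMP-inhibited replicate 3 (0.11) and with library totals only (0.154), and that for Gstm6 in all alternatives except DESeq2's size factors in edgeR, the replicate block and leaving out BMP-inhibited replicate 1. The most abundant mu gene, Gstm1, averaged 72.6 ± 7.70 CPM in BMP-inhibited and 65.7 ± 0.899 CPM in control cells and was not called (log2 fold change 0.14, SE 0.07, adjusted p = 0.0656). Leaving out BMP-inhibited replicate 1 brought Gstm1 past the threshold (0.23, adjusted p = 0.000461), as did testing with no filter on counts (0.14, adjusted p = 0.0414). Gstm1 has a near-identical pseudogene. Gstm5, at 0.32 (SE 0.20), was not called.

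Of the pi class, Gstp1 and Gstp3 rose. Gstp1 was at 54.8, 60.2 and 64.1 CPM in BMP-inhibited libraries, against 39.7, 42.8 and 42.9 CPM in control libraries (log2 fold change 0.51, SE 0.06, adjusted p = 4.1e-06). Gstp3 was at 6.14, 6.42 and 7.25 CPM in BMP-inhibited libraries, against 4.92, 4.30 and 4.58 CPM in control libraries (log2 fold change 0.52, SE 0.13, adjusted p = 0.00247). Gstp2, at 24.2 ± 2.88 CPM in BMP-inhibited and 21.3 ± 1.01 CPM in control cells, was not called (log2 fold change 0.18, SE 0.09, adjusted p = 0.0742). Leaving out BMP-inhibited replicate 3 brought it past the threshold (0.25, adjusted p = 0.0266). Gstp1 and Gstp2 are near-identical copies of each other and of a pseudogene, so the split of reads between them is uncertain. Summed, the pi class was at 84.1, 94.03 and 93.3 CPM in BMP-inhibited libraries, against 66.7, 67.3 and 69.2 CPM in control libraries, with the groups apart. Any reads left uncounted because they match several copies are missing from this sum too.

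Gsto1, an omega class enzyme with thioltransferase activity, was at 248, 292.5 and 263.5 CPM in BMP-inhibited libraries, against 188, 182 and 185 CPM in control libraries. It rose by 0.53 (SE 0.05, adjusted p = 3.6e-07) with the groups apart. Gsto2, its neighbour, had levels of 0.835 to 1.19 CPM in BMP-inhibited and 1.21 to 1.52 CPM in control libraries and was not called, although the groups did not overlap (log2 fold change -0.52, SE 0.27, adjusted p = 0.102). Gstk1, the kappa class enzyme of mitochondria and peroxisomes, was at 3.04, 3.37 and 3.62 CPM in BMP-inhibited libraries, against 1.11, 0.883 and 1.36 CPM in control libraries. The rise of Gstk1 was 3.01-fold (log2 fold change 1.59, SE 0.21, adjusted p = 9.31e-06).

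Gstz1 encodes the zeta class enzyme that isomerises maleylacetoacetate in tyrosine breakdown. It was at 16.6, 17.98 and 16.3 CPM in BMP-inhibited libraries, against 31.5, 33.6 and 31.1 CPM in control libraries, and fell, its log2 fold change being -0.92 (SE 0.07, adjusted p = 2.31e-08). Exons of Gstz1 overlap antisense genes over 12.2% of their length, and the larger of these, Pomt2, rose by 0.62. Mgst3, a membrane-bound enzyme of leukotriene and peroxide metabolism, was at 14.9, 16.5 and 15.7 CPM in BMP-inhibited libraries, against 25.2, 26.9 and 28.2 CPM in control libraries (log2 fold change -0.77, SE 0.08, adjusted p = 3.77e-07). Mgst1 and Mgst2 stayed under 1 CPM in every library and were not called, although all Mgst2 values were higher in BMP-inhibited libraries (log2 fold change 0.71, SE 0.36, adjusted p = 0.0964).

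In the alpha class Gsta3 was at 3.97, 4.66 and 4.45 CPM in BMP-inhibited libraries, against 3.07, 3.20 and 2.65 CPM in control libraries. It rose by 0.55 (SE 0.16, adjusted p = 0.00609). Gsta2 did not pass the filter, with 18, 9 and 24 counts in BMP-inhibited libraries, against 7, 2 and 8 counts in control libraries, and the groups did not overlap. With no filter on counts it was called higher (log2 fold change 1.69, adjusted p = 0.00487), but it has near-identical copies, so the level is uncertain. Gsta1 was at 0 in all 6 libraries, and Gstt4 held 1 count in a BMP-inhibited library and 1 count in a control library.

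Other genes of these pathways were read from 6 lists. The share called is given for each, to be set beside the 64.2% of all genes tested, of which 32.5% rose and 31.7% fell. Among 24 other known NRF2 targets 17 rose and 2 fell (79.2% called), with a median log2 fold change of 0.38. Osgin1, counted among the 17, held 4, 1 and 3 counts in control libraries and would not have passed the count filter on them alone. Nqo1, the quinone reductase that is the textbook NRF2 target, averaged 121 ± 11.7 CPM in BMP-inhibited and 64.1 ± 1.20 CPM in control cells (log2 fold change 0.92, SE 0.06). Txnrd1, which reduces thioredoxin, averaged 613 ± 5.47 CPM in BMP-inhibited and 364 ± 1.14 CPM in control cells (log2 fold change 0.75, SE 0.04). The NADPH-producing enzymes Idh1 and Pgd rose by 0.84 and 0.75. Slc7a11, the cystine importer that NRF2 and ATF4 both activate, was 1 of the 2 that fell. It averaged 1.03 ± 0.377 CPM in BMP-inhibited and 5.35 ± 0.526 CPM in control cells (log2 fold change -2.39, SE 0.22, adjusted p = 1.71e-07).

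Genes around KEAP1 and the NRF factors had 7 higher and 4 lower of 16 (68.8% called, near the 64.2% of all genes). Nfe2, counted among the 7, held 15, 6 and 16 counts in control libraries and would not have passed the count filter on them alone. Cul3 and Rbx1, subunits of the ligase that KEAP1 serves, rose by 0.39 and 0.39, Gsk3b, a kinase that marks NRF2 for another ligase, by 0.51, and the sestrin gene Sesn1, a known p53 target, by 1.15. The gamma-glutamyl cycle and its amino acid suppliers had 4 higher and 5 lower of 14 (64.3% called, as for all genes). The glutamine transporter Slc1a5 had the smallest p there, at 209 ± 11.96 CPM in BMP-inhibited and 528 ± 13.6 CPM in control cells (log2 fold change -1.34, SE 0.05), while the peptidase gene Lap3 fell with a log2 fold change of -0.42 and the glutamate dehydrogenase gene Glud1 rose by 0.54.

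Methionine and sulfur genes had 5 higher and 7 lower of 14 (85.7% called). The homocysteine methyltransferases Bhmt and Bhmt2 averaged 3.96 and 2.03 CPM in BMP-inhibited cells, against 0.309 and 0.260 CPM in control cells, and rose by 3.68 (SE 0.29) and 2.96 (SE 0.33). Both fold changes rest on few control counts, 12, 11 and 9 for Bhmt and 11, 9 and 7 for Bhmt2. Neither gene would have passed the count filter on its control libraries alone. Both passed through the BMP-inhibited libraries, where they are high. Ahcy, which releases homocysteine, rose by 0.83, whereas methionine synthase, Mtr, had a log2 fold change of -0.52. Other thioredoxin, glutaredoxin and glutathione peroxidase genes had 6 higher and 6 lower of 15 (80% called). Txnip, an inhibitor of thioredoxin, averaged 401 ± 51.3 CPM in BMP-inhibited and 1022 ± 13.01 CPM in control cells (log2 fold change -1.35, SE 0.07). Mitochondrial thioredoxin, Txn2, rose by 0.58, and nucleoredoxin, Nxn, by 0.69. Gpx4, the lipid peroxidase that guards against ferroptosis, fell slightly (log2 fold change -0.11, SE 0.04, adjusted p = 0.0274), a call that ended on leaving out control replicate 1 (adjusted p = 0.0832), control replicate 3 (adjusted p = 0.0831) or BMP-inhibited replicate 1 (adjusted p = 0.0594). Proteins with a transferase fold or of the microsomal family outside the pattern had 4 higher and 2 lower of 9 (66.7% called, near the share of all genes). Among them Ptges and Eef1g were at 1.34 and 0.40 and Gstcd and Vars at -0.33 and -0.25. Bhmt, Gstcd and Txnip overlap antisense genes.

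**Figure D5:**
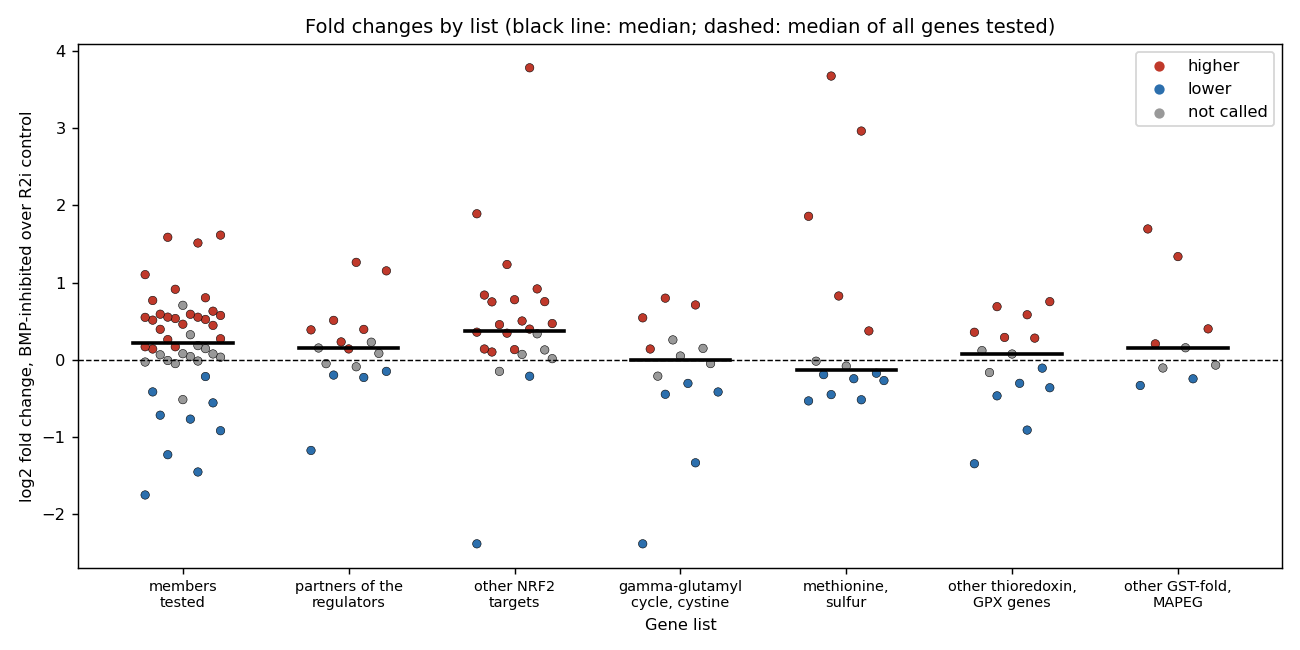
Log2 fold change (BMP-inhibited over R2i control) of each tested gene in the members and in 6 lists of related genes, coloured by call, with the median of each list as a black line and the median of all genes tested dashed. The medians are 0.22 for the members and 0.38 for other NRF2 targets, and Slc7a11 at -2.39 is the lowest point, shown in both lists that hold it.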

How the data were processed

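For each of 6 mRNA libraries the authors deposited raw counts of reads per gene. Build GRCm38.p6 and the tools HTSeq 0.9.1, STAR 2.6.1, cutadapt 1.4.2, CASAVA 1.8.2 and DESeq2 are listed in the submitters' processing notes, with no roles. The annotation release and the strand setting of the counting are not given in the sources used here. Reads may therefore be shared or left uncounted for the 7 members with antisense exon overlap (Gclm, Gss, Gstm5, Gstz1, Keap1, Prdx2 and Prdx5). The same holds for the 2 with overlap on the same strand (Gclm and Gstt3). The 5 rows that name no gene held 25.6% to 26.4% of reads and were left out. Symbols and coordinates came from GENCODE M21, which matched 53360 of 53465 identifiers. Near-identical copies (BLAST 2.17.0, 90% identity over 50% of the longest transcript) were found for 5 members: Gsta1, Gsta2, Gstm1, Gstp1 and Gstp2.

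All genes passing the default filter of edgeR 4.0.16 (minimum count 10, total 15) were fitted with TMM scaling and its quasi-likelihood F test, two-sided, with Benjamini-Hochberg adjustment over all genes. Fold changes are unshrunk, BMP-inhibited over control, and SE comes from the F statistic. Alternatives were DESeq2 1.42.0, limma-voom (limma 3.58.1), other scalings and filters, a replicate block and leaving out each library; R 4.3.3 and Python 3.11.15 were used. Values in every library are given for Nfe2l1, Nfe2l2, Keap1, Bach1 and each called member with an absolute log2 fold change of at least 0.5 and a mean of at least 1 CPM. From each related list up to 4 genes with the smallest p are named, with Nqo1, Txnrd1, Slc7a11 and Gpx4 whatever their result. Osgin1 and Nfe2 are named for how they passed the count filter. Members and lists were chosen with earlier results of these data known. Where replicates were not separate cultures, p-values measure only technical spread. A neighbour of the pi cluster is not reported here.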

Additional observations from a re-analysis of the deposited data

How the results depend on the processing

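Over 14 alternatives, the count of members higher was 21 to 26 and that of members lower was 9. All 9 members called lower, and 20 of the 25 called higher, kept direction and call in every alternative that tested them; the exceptions were Bach1, Hmox1, Gstm2, Gstm6 and Gstm7. Members gained as higher were Gstm1, Gstp2 and Gsta2. Gsta2 was tested only with no count filter (1.69) or with 1 library left out. Of the latter fits, it was called without control replicate 1 (1.88, adjusted p = 0.0259), control replicate 3 (2.05, adjusted p = 0.0167) or BMP-inhibited replicate 2 (2.00, adjusted p = 0.00295). It was not called without control replicate 2 (1.26, adjusted p = 0.0684). Its control counts of 7, 2 and 8 were under the minimum count of 10. In the fits with 1 library left out Gsta2 therefore passed the filter only through the BMP-inhibited group, where it is high, and these calls are no support for a rise. With library totals only, 21 members were higher, 44.4% of all calls were higher in place of 50.6%, and the median of all genes was -0.06. Sign changes occurred only in members that were not called. Prdx3 was at -0.017 and Prdx5 at -0.026 with library totals only, and Mgst1 at 0.126 with limma-voom. Leaving out 1 library gave -0.055 to 0.0083 for Prdx2, -0.0051 to 0.081 for Prdx5, -0.068 to 0.027 for Sod1, -0.058 to 0.043 for Gsta4, -0.039 to 0.16 for Gstt1 and -0.47 to 0.30 for Mgst1. Replicate numbers showed no pairing (correlations of same-numbered deviations -0.0443, 0.00791 and 0.0287, and not every library correlated best with its own number); with the replicate block 26 members were higher, 9 lower and 10210 genes called, Gstm1 being added (0.14, adjusted p = 0.044). In the 250 bases before the start alone, TGACNNNGC was in 15.5% of member windows and 10.2% of all. Levels under 1 CPM (Mgst1, Mgst2) leave standard errors of 0.47 and 0.36, which limits what their tests can show.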

Other observations

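BMP-inhibited replicate 2 was the library nearest to the controls for 2401 of 5056 genes called lower (47.5%). Among the members called lower it was nearest for 6 of 9, Chac1, Gstt2 and Gstt3 included. Among the members called higher, replicate 1 was nearest to the controls for 19 of 25, replicate 2 for 3 and replicate 3 for 3. Over all genes called higher, replicate 1 was nearest for 30.4%, replicate 2 for 50.8% and replicate 3 for 18.7%. This count was made after the values had been seen, and no test was run on it.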
